A study of Mus musculus with 12 samples.

Results

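The marrow of mice lacking both Fancc and Fancg was compared with the marrow of mice lacking Fancc alone, which asks what the loss of Fancg adds when Fancc is already absent. The comparison used 6 of the 12 arrays of the series, the 3 titled as double knockout and the 3 titled as Fancc-/-, and the other 6 (3 wild type C57Bl/6 and 3 Fancg-/-) entered the same model so that all groups shared an estimate of spread. The knockout mice were nullizygous, with no tissue-specific deletion described, so both groups compared lack Fancc, and the labels state a strain for the wild-type mice only and give no age, sex or array date. Each array is described as RNA of unfractionated, uncultured marrow flushed from the tibia and femur of 1 mouse, without pooling. Fancg-/- replicates 1 and 3 carried the marks of both sexes, and whether each held 1 mouse was not tested. Of 17404 autosomal genes with a probe set of their own, 11525 were bright enough to test, and 5879 were not tested. All levels are log2 RMA signals, so a difference of 1 is a doubling, and the level of a gene is compared only with its own level in other mice. The p-values measure the spread between these mice.

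FANCC and FANCG are subunits of the Fanconi anemia core complex, a nuclear ubiquitin ligase that modifies the FANCI and FANCD2 proteins so that DNA interstrand crosslinks can be repaired. Loss of FANCC or FANCG impairs the complex, and people who lack either develop bone marrow failure. FANCC has also been linked to how blood cells respond to inflammatory cytokines. In bulk marrow, fewer cells of a type and less RNA per cell cannot be told apart.

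The arrays of each group were not equally alike. Over the 11525 genes, double knockout replicates 2 and 3 correlated at 0.992, while replicate 1 was at 0.973 with each of them and at 0.989 with Fancg-/- replicate 1. Among the Fancc-/- arrays, replicates 1 and 2 correlated at 0.984, and replicate 3 was at 0.954 and 0.961 with them. The SD over genes of the distance from the Fancc-/- mean was 0.31 for double knockout replicate 1, against 0.47 and 0.44 for replicates 2 and 3. Double knockout replicate 1 and Fancc-/- replicate 3 therefore stood apart, and the counts of genes and of list members are given with and without each of them.

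The targeted genes were read first. Fancg (chromosome 4) was at 6.72, 6.55 and 6.43 in Fancc-/- replicates 1 to 3 and at 5.61, 5.83 and 5.78 in the double knockout on the probe set used for the test, a difference of -0.83 ± 0.16 (SE, limma adjusted p = 0.0644). On its other probe set Fancg was at 6.76, 6.68 and 6.78 in Fancc-/- against 5.67, 5.41 and 5.54 in the double knockout. The groups did not overlap on either probe set. Fancc (chromosome 13) was at 6.17, 6.04 and 5.96 in Fancc-/- against 6.01, 5.79 and 5.56 in the double knockout, with wild type at 6.05, 5.90 and 6.18, so its signal in Fancc-/- mice lay within the wild-type range on that probe set. On another probe set Fancc was at 5.75, 5.69 and 5.87 in Fancc-/- mice, above the 5.25, 5.33 and 5.35 of wild type, and at 5.28, 5.31 and 5.45 in the double-knockout mice, and a further one differed by -0.33 between the knockouts. Where these probe sets lie relative to the deleted parts of the genes is not known, so neither gene checks the genotypes.

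The sex-linked transcripts separated the groups completely. Xist, the RNA that silences an X chromosome in female cells, was at 12.13, 11.76 and 11.19 in the Fancc-/- mice and at 7.39, 7.06 and 5.99 in the double-knockout mice. Eif2s3y, a translation factor gene on the Y chromosome, was at 2.94, 3.18 and 3.30 in Fancc-/- against 9.35, 8.85 and 8.81 in the double knockout. Sex marks and the loss of Fancg cannot be told apart in any value below, although all genes described are autosomal.

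No gene passed the test between the double knockout and Fancc-/- (0 of 11525, or 0%, at an adjusted p below 0.05 with limma's moderated test and Benjamini-Hochberg adjustment, smallest adjusted p = 0.0609). At an unadjusted p below 0.05 there were 2272 genes, where 576 would be the average if no gene differed. Genes are not independent, so such a count can lie far from that average by chance. Of the 2272 genes, 1177 (10.2%) were higher and 1095 (9.50%) lower in the double knockout, and the median difference over all genes was -0.02. All 3 double-knockout arrays lay above all 3 Fancc-/- arrays for 1006 genes (8.73%) and below them for 1049 (9.10%). Among such separated genes, 81 were at least 2-fold higher and 35 at least 2-fold lower by their means.

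Whether genes passed depended on which mice were in the fit. Without double knockout replicate 1, 1238 genes passed (645 higher, 593 lower), and without Fancc-/- replicate 3, 300 passed (173 higher, 127 lower). Without double knockout replicate 2 or Fancc-/- replicate 1 none passed, without Fancc-/- replicate 2 there was 1, and without double knockout replicate 3 there were 3. A fit that weighted each array by how well it followed its group called 1673 genes (840 higher, 833 lower), and gave its lowest weights to Fancc-/- replicate 3 (0.271) and double knockout replicate 1 (0.343). A total of 166 genes passed in all of the fits without double knockout replicate 1, without Fancc-/- replicate 3 and with array weights. These fits share most arrays, and the weights were lowest for the same mice that the other fits left out. Their overlap is therefore a description and no independent support.

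**Figure D1:**
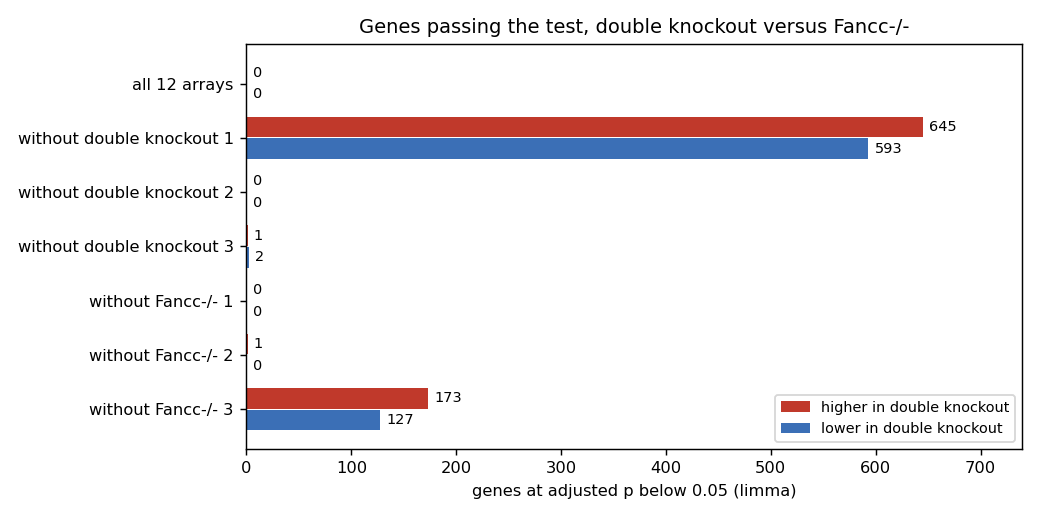
Bars give the number of genes at a limma adjusted p below 0.05 between the double knockout and Fancc-/- (x axis) with all 12 arrays and after leaving out each of the 6 arrays compared in turn, higher in the double knockout in red and lower in blue. Only the fits without double knockout replicate 1 (645 and 593) and without Fancc-/- replicate 3 (173 and 127) gave more than 3 calls.

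The 12 higher and 12 lower genes of smallest p are described next as values. In all 24 the groups did not overlap, which is a description, since the p-values that chose them use the same arrays. All 24 kept their direction in each of the 6 fits that left out an array of these groups. Groups that do not overlap fix that outcome in advance, so it adds no support. All 24 passed without double knockout replicate 1 and without Fancc-/- replicate 3, 2 passed without double knockout replicate 3, 1 without Fancc-/- replicate 2, and none without double knockout replicate 2 or Fancc-/- replicate 1.

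**Figure D2:**
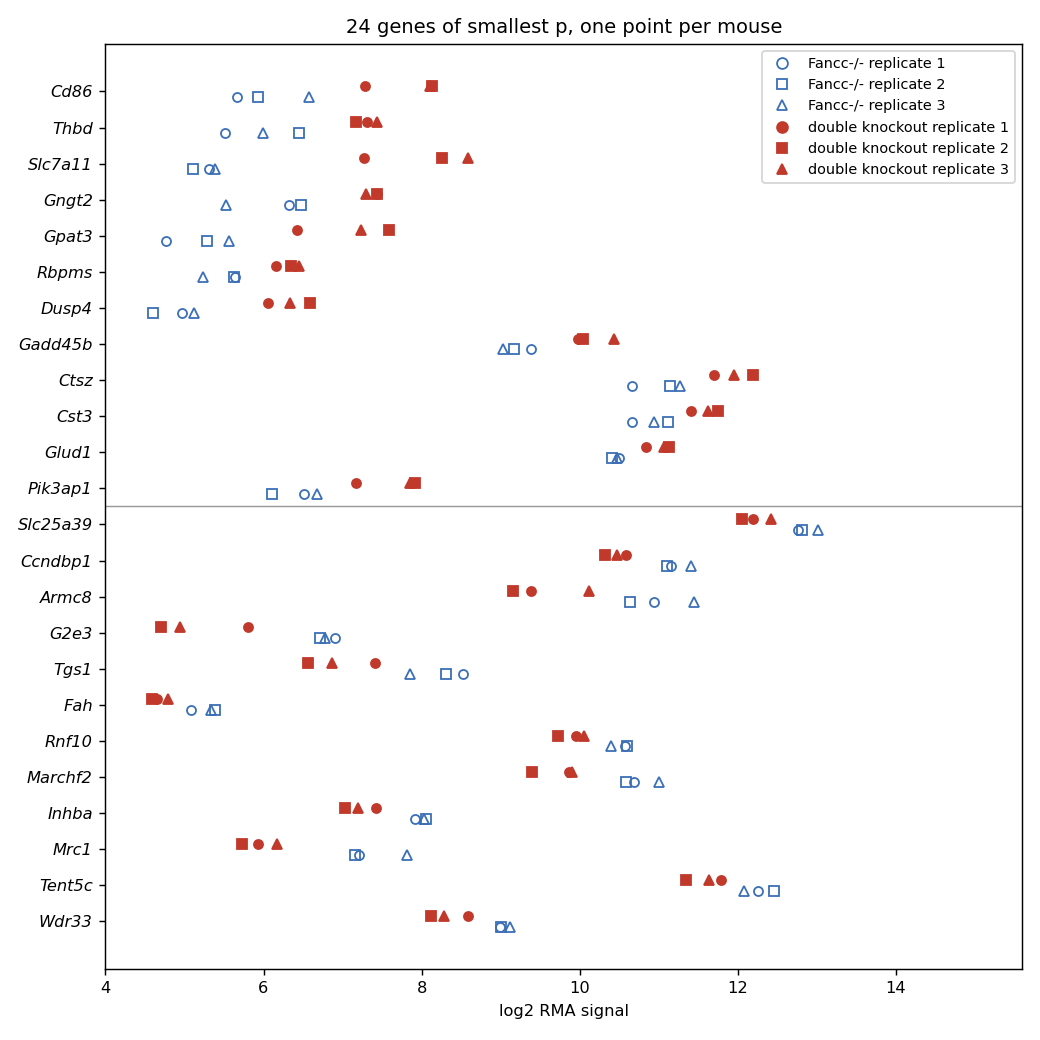
Each point is the log2 RMA signal of 1 mouse (x axis) for the 12 higher (above the line) and 12 lower genes (below it) of smallest p, with Fancc-/- in open blue and the double knockout in filled red, and circle, square and triangle for replicates 1, 2 and 3. In every row the 3 red points lie on one side of the 3 blue points, from Slc7a11 (difference 2.77) to G2e3 (-1.65).

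Among the 12 higher genes, 3 handle nutrients or lipids, and Slc7a11 had the largest difference of the set. Slc7a11, the cystine transporter subunit that feeds glutathione synthesis, was at 5.30, 5.11 and 5.38 in Fancc-/- against 7.27, 8.25 and 8.59 in the double knockout. The lowest double-knockout mouse, replicate 1, still lay above every Fancc-/- mouse, and the difference was 2.77 ± 0.43 (SE, adjusted p = 0.0609), or 6.83-fold. Gpat3, an acyltransferase of triglyceride synthesis, was at 4.77, 5.28 and 5.57 against 6.42, 7.58 and 7.23, a difference of 1.87 ± 0.30 (adjusted p = 0.0609). Its lowest Fancc-/- value lay below the array medians of 4.79 to 4.87. Glud1, the mitochondrial glutamate dehydrogenase, differed less (0.55 ± 0.09, adjusted p = 0.0609) but was tight within groups, at 10.49, 10.41 and 10.47 against 10.84, 11.13 and 11.06.

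The 250 bases upstream of Slc7a11 and Nupr1, both of the amino acid and integrated stress response list, and of Nfkb2, of the NF-kB list, are printed because they hold the motif searched for their list. They are RefSeq windows on GRCm38.p6, at chr3:50443614-50443863 (minus strand), chr7:126625471-126625720 (minus strand) and chr19:46304487-46304736 (plus strand, the first of 3 Nfkb2 starts), written 5′ to 3′ on the strand of the gene. Capitals mark TGATGNAA, an amino acid response type element, in Slc7a11 and Nupr1, and in Nfkb2 an NF-kB type element of 3 G, 2 bases of any kind, 3 T and 2 C. Both were searched on both strands.
Slc7a11: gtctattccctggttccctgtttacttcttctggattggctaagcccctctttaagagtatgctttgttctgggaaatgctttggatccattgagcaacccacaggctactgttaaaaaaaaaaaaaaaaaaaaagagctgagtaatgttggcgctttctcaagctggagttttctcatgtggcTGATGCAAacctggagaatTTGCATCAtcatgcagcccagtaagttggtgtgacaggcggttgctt
Nupr1: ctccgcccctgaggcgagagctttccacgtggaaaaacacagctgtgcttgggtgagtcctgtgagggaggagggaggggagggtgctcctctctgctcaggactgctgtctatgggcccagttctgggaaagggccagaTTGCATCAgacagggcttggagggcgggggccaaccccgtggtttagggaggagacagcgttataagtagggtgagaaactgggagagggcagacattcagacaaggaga
Nfkb2: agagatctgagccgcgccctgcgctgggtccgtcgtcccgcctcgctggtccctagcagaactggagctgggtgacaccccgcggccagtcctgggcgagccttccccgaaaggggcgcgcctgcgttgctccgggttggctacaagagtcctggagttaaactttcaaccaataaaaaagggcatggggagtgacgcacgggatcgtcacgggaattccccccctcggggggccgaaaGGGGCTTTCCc
The 2 Slc7a11 matches begin 66 and 47 bases before the start and lie on opposite strands, and the Nupr1 match begins 110 bases before it. TGATGNAA was found in 3.45% (1133) and the NF-kB type element in 1.41% (464) of 32817 such windows of mouse genes. The windows of Atf4 and Trib3 held no TGATGNAA and those of Tnfrsf1b and Gadd45b no NF-kB type element. Of the other Nfkb2 starts, the window of the second held no NF-kB type element and that of the third held 1, beginning 225 bases before the start. A match is a run of letters and no evidence of binding.

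Of the 4 higher genes described next, Cd86 had the largest difference. Cd86, the costimulatory ligand read by CD28 on T cells, was at 5.67, 5.93 and 6.58 in Fancc-/- against 7.28, 8.13 and 8.10 in the double knockout, with replicate 1 the lowest of its group. The difference was 1.78 ± 0.25 (adjusted p = 0.0609), or 3.43-fold. Thbd, the thrombin receptor thrombomodulin, was at 5.52, 6.45 and 6.00 against 7.31, 7.17 and 7.44 (1.32 ± 0.20). Ctsz, a lysosomal cathepsin, was at 10.66, 11.14 and 11.27 against 11.70, 12.19 and 11.95 (0.92 ± 0.15), and Cst3, the cathepsin inhibitor cystatin C, at 10.66, 11.11 and 10.93 against 11.41, 11.75 and 11.62 (0.69 ± 0.12). For Thbd, double knockout replicate 1 lay between the other mice of its group, and for Ctsz and Cst3 it was the lowest. The adjusted p was 0.0609 for all 3 genes.

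The other 5 higher genes include 4 that act in signalling. Dusp4, a phosphatase that switches off MAP kinases in the nucleus, was at 4.97, 4.61 and 5.12 in Fancc-/- against 6.06, 6.59 and 6.34 in the double knockout (1.43 ± 0.24). Its Fancc-/- values lay close to the array medians of 4.79 to 4.87. Pik3ap1, an adaptor that links receptors to PI3 kinase, was at 6.51, 6.11 and 6.68 against 7.17, 7.92 and 7.85 (1.21 ± 0.21). Gngt2, a G protein gamma subunit, was at 6.33, 6.48 and 5.53 against 7.44, 7.43 and 7.30 (1.28 ± 0.21). These 3 genes share the pattern of an open gap between groups, with Fancc-/- replicate 3 the lowest mouse for Gngt2 only. Gadd45b, a stress-induced regulator of MAP kinase signalling, was at 9.38, 9.17 and 9.03 against 9.98, 10.05 and 10.43 (0.96 ± 0.16), and Rbpms, an RNA-binding protein, at 5.64, 5.62 and 5.23 against 6.16, 6.34 and 6.45 (0.82 ± 0.13). All 5 had an adjusted p of 0.0609.

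Several of the lower genes act in maturing red cells or in ubiquitin transfer. Slc25a39, a mitochondrial carrier needed for glutathione import and heme synthesis, was at 12.76, 12.81 and 13.01 in Fancc-/- against 12.20, 12.06 and 12.41 in the double knockout (-0.64 ± 0.10, adjusted p = 0.0609). Rnf10, a RING-type ubiquitin ligase, was at 10.57, 10.60 and 10.40 against 9.95, 9.73 and 10.06 (-0.61 ± 0.11, adjusted p = 0.0625). Marchf2, a membrane-bound ubiquitin ligase, was at 10.68, 10.59 and 11.01 against 9.86, 9.39 and 9.91 (-1.04 ± 0.19, adjusted p = 0.0625). In all 3 genes every double-knockout mouse lay below every Fancc-/- mouse. Armc8, a subunit of the CTLH ubiquitin ligase, was at 10.94, 10.64 and 11.44 against 9.38, 9.15 and 10.12 (-1.46 ± 0.24, adjusted p = 0.0609), but its probe sets disagreed: their mean gave -0.55 (adjusted p = 0.13). G2e3, a ubiquitin ligase of the G2 phase, was at 6.91, 6.72 and 6.78 against 5.81, 4.70 and 4.94 (-1.65 ± 0.28, adjusted p = 0.0609), with double knockout replicate 1 nearest to Fancc-/-.

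Of the other 7 lower genes, 3 act on RNA. Tgs1, which trimethylates the cap of small nuclear RNAs, was at 8.53, 8.31 and 7.85 in Fancc-/- against 7.41, 6.57 and 6.86 in the double knockout (-1.28 ± 0.22, adjusted p = 0.0618). Tent5c, a poly(A) polymerase that stabilizes mRNAs, was at 12.25, 12.45 and 12.07 against 11.79, 11.35 and 11.63 (-0.67 ± 0.13, adjusted p = 0.0627). Wdr33, a subunit of the factor that recognizes the polyadenylation signal, was at 8.99, 9.00 and 9.12 against 8.58, 8.11 and 8.28 (-0.71 ± 0.14, adjusted p = 0.0627). In Tgs1 and Wdr33, as in G2e3, double knockout replicate 1 was the member of its group closest to the Fancc-/- mice. Ccndbp1, a helix-loop-helix protein that binds cyclin D, was at 11.16, 11.11 and 11.40 against 10.58, 10.32 and 10.47 (-0.77 ± 0.12, adjusted p = 0.0609). Inhba, the subunit of activin A, was at 7.91, 8.06 and 8.03 against 7.42, 7.03 and 7.20 (-0.78 ± 0.15, adjusted p = 0.0627). Fah, the last enzyme of tyrosine breakdown, was at 5.09, 5.39 and 5.34 against 4.65, 4.60 and 4.79 (-0.59 ± 0.11, adjusted p = 0.0625), close to the array medians of 4.79 to 4.87. Mrc1, the mannose receptor of tissue macrophages, is described with its cell type.

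The same genes were read against wild type, in differences that share the Fancc-/- or the double-knockout arrays with those above. Some lay away from wild type in the double knockout: Slc7a11 was at 5.04, 6.25 and 5.68 in wild type, so the double knockout differed from it by 2.38 ± 0.43 (adjusted p = 0.018) and Fancc-/- by -0.39 ± 0.43 (adjusted p = 0.661). Cd86 was at 6.40, 6.33 and 6.63 in wild type, and the corresponding differences were 1.38 ± 0.25 (adjusted p = 0.018) and -0.40 ± 0.25 (adjusted p = 0.414). Tgs1 differed from wild type by -1.14 ± 0.22 (adjusted p = 0.0212) in the double knockout and 0.15 ± 0.22 (adjusted p = 0.756) in Fancc-/-. Others lay away from wild type in Fancc-/-. Thbd, at 7.15, 7.36 and 7.01 in wild type, differed by 0.13 ± 0.20 (adjusted p = 0.745) in the double knockout and -1.18 ± 0.20 (adjusted p = 0.00779) in Fancc-/-. Slc25a39, at 11.99, 11.89 and 11.83 in wild type, differed by 0.32 ± 0.10 (adjusted p = 0.0758) and 0.96 ± 0.10 (adjusted p = 0.000861). Rnf10 differed by 0.23 ± 0.11 (adjusted p = 0.22) and 0.84 ± 0.11 (adjusted p = 0.00214).

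**Figure D3:**
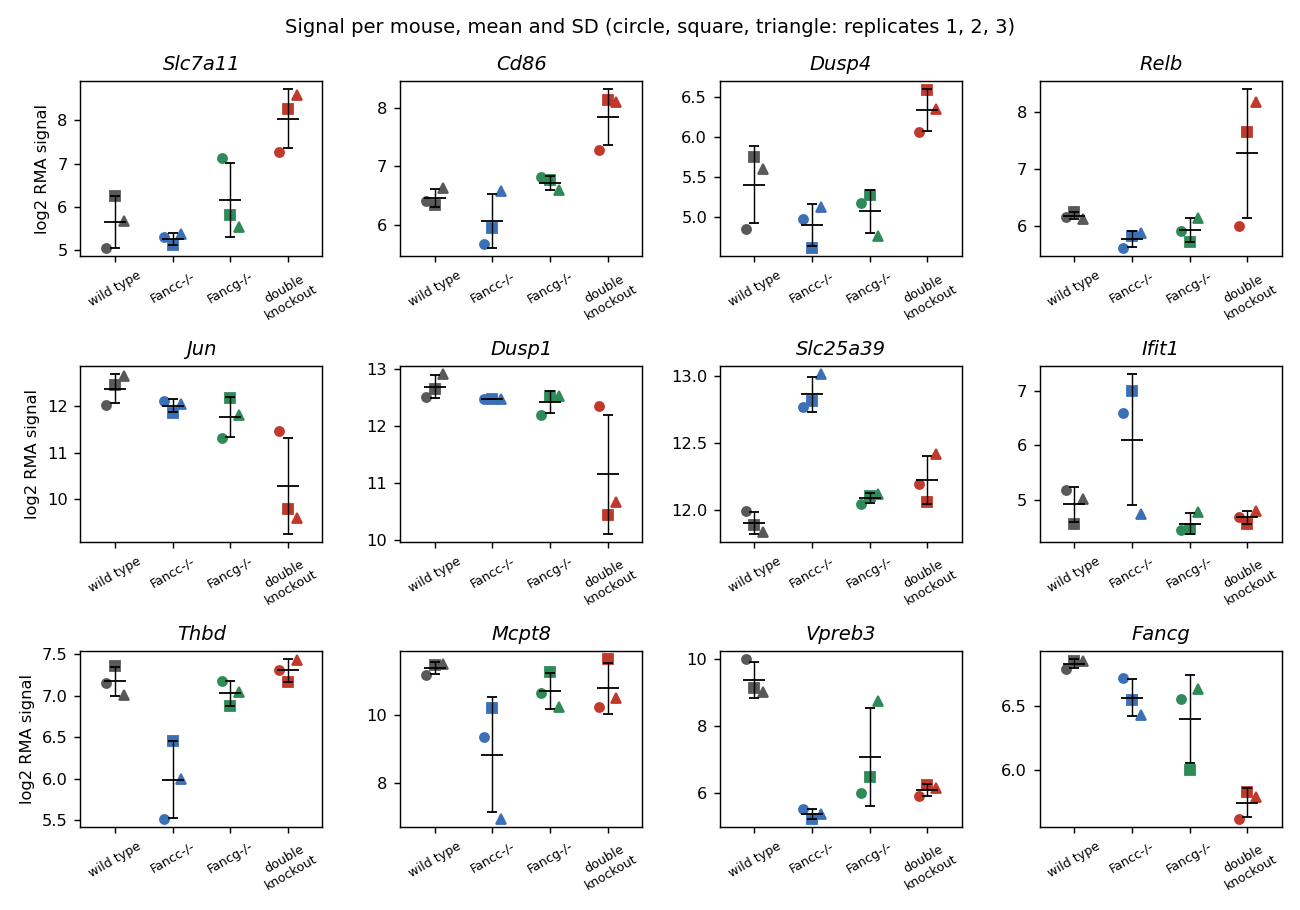
Each panel gives the log2 RMA signal (y axis) of a gene in every mouse of the 4 genotypes (x axis), with the group mean and SD as a horizontal line and bar. Slc7a11, Cd86 and Dusp4 were highest in the double knockout, while the double-knockout mice lay near wild type for Thbd and Ifit1 and Fancc-/- replicate 3 stood apart from its group for Ifit1 and Mcpt8. For Relb, Jun and Dusp1, double knockout replicate 1 lay apart from replicates 2 and 3.

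Lists of genes that share a function or mark a cell type were read as counts of members at an unadjusted p below 0.05, against 10.2% higher and 9.50% lower over all genes. Without double knockout replicate 1, 13.4% of all genes were higher and 13.0% lower, and without Fancc-/- replicate 3, 11.5% and 11.8%, so member counts from those fits, given as higher and then lower, are to be read against these shares. No member of any list passed the adjusted test (0 of 878 listed genes tested, of which 216 had an unadjusted p below 0.05). Counts of positive or negative differences in a list are to be read against a median of -0.02 over all genes. The amino acid and integrated stress response list holds genes that ATF4 drives when translation is slowed. Of its 25 tested members, 8 were higher and 1 lower, and the median difference was 0.33. Atf4 itself was at 11.55, 11.36 and 11.12 in Fancc-/- against 11.50, 12.23 and 12.15 in the double knockout (0.62 ± 0.18, adjusted p = 0.114), so double knockout replicate 1 lay inside the Fancc-/- range. Nupr1, a stress-induced chromatin protein, was at 6.60, 6.65 and 5.55 against 6.65, 8.06 and 7.65 (1.19 ± 0.37, adjusted p = 0.138), with the same mouse next to Fancc-/-. The list's median distance from the Fancc-/- mean was 0.02 in replicate 1, 0.52 in replicate 2 and 0.38 in replicate 3. The counts were 11 and 2 (median 0.39) without double knockout replicate 1, and 6 and 3 (median 0.15) without Fancc-/- replicate 3.

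The unfolded protein response list, the chaperones and degradation factors of the endoplasmic reticulum, had 5 of 18 members higher and none lower (median 0.14). Herpud1, which helps to clear misfolded proteins there, was at 9.98, 9.74 and 10.37 in Fancc-/- against 10.19, 10.98 and 11.23 in the double knockout (0.77 ± 0.25, adjusted p = 0.142), so the groups overlapped through replicate 1. Manf, a secreted stress factor, differed by 0.55 ± 0.16 (adjusted p = 0.115) and the chaperone Hspa5 by 0.41 ± 0.14 (adjusted p = 0.155). The list's counts were 6 and 2 without double knockout replicate 1 and 2 and 2 (median 0.04) without Fancc-/- replicate 3.

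Proteasome subunits, the parts of the protease that degrades ubiquitinated proteins, lay almost all on the higher side. Of 34 tested subunits, 32 had a positive difference, 13 were higher at an unadjusted p below 0.05, and none was lower. All double-knockout arrays lay above all Fancc-/- arrays for 16 of the 34, against 8.73% of all genes. The differences were small, with a median of 0.19 and a range of -0.06 to 0.58. The medians by double-knockout mouse were 0.12, 0.27 and 0.16. Psmc1, an ATPase of the regulatory cap, was at 9.13, 8.83 and 9.23 in Fancc-/- against 9.42, 9.68 and 9.51 in the double knockout (0.47 ± 0.13, adjusted p = 0.107). Psma7, of the outer ring of the core, differed by 0.41 ± 0.13 (adjusted p = 0.143), and Psmb6, a catalytic subunit of the inner ring, by 0.34 ± 0.11 (adjusted p = 0.14). The counts were 12 and 0 without double knockout replicate 1 and 10 and 0 without Fancc-/- replicate 3.

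Other housekeeping lists had none or 1 member lower. Heat shock proteins had 4 of 18 higher and none lower (median 0.15), with the smallest p for the chaperones Hspa4 (0.40 ± 0.09, adjusted p = 0.0852) and Hspa9 (0.52 ± 0.15, adjusted p = 0.117). While 14 of the 18 differences were positive, the largest were negative, for Hspa1a (-1.29, limma adjusted p = 0.439) and Hspa1b (-1.12, limma adjusted p = 0.456). The Myc network had 5 of 22 higher and 1 lower (median 0.16), with the polyamine enzyme Odc1 at 0.49 ± 0.13 (adjusted p = 0.104). Respiratory chain subunits had 6 of 42 higher and none lower (median 0.11), and cytosolic ribosomal proteins 3 of 27 and none (median 0.05). In that order of lists, the counts were 5 and 0, 7 and 2, 7 and 0, and 2 and 0 without double knockout replicate 1. Leaving out Fancc-/- replicate 3 gave 3 and 0, 5 and 0, 5 and 1, and 5 and 0.

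The TGF-beta signalling list held 10 of 24 members higher and 2 lower, with a median of 0.31 and medians by double-knockout mouse of 0.20, 0.36 and 0.39. Tgfbr1, the type I receptor, was at 7.81, 7.92 and 8.47 in Fancc-/- against 8.59, 9.73 and 9.88 in the double knockout (1.33 ± 0.30, adjusted p = 0.0772). Smad3, the factor that carries the signal to the nucleus, was at 7.10, 7.57 and 7.34 against 7.63, 8.45 and 8.78 (0.95 ± 0.24, adjusted p = 0.0926). Receptor and effector were thus separated between groups, with double knockout replicate 1 the lowest of its group for both. Id3, a target gene that restrains helix-loop-helix factors, was at 6.04, 6.25 and 6.01 against 6.66, 7.98 and 8.11 (1.48 ± 0.33, adjusted p = 0.0772). The 2 lower members were Smad5 (-0.49, limma adjusted p = 0.236) and Eng (-0.30, limma adjusted p = 0.238). The activin subunit Inhba, described above, had a negative difference but is not a member of the list. The counts were 11 and 1 without double knockout replicate 1 and 12 and 1 without Fancc-/- replicate 3.

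The list of TNF, NF-kB and inflammatory cytokine genes had 8 of 29 members higher and 2 lower (median 0.23). The 2 lower members were the cytokine genes Il1b (-1.78, limma adjusted p = 0.111) and Ccl3 (-1.04, limma adjusted p = 0.107). Relb, a subunit of the noncanonical NF-kB dimer, was at 5.61, 5.82 and 5.89 in Fancc-/- against 6.01, 7.65 and 8.17 in the double knockout (1.50 ± 0.40, adjusted p = 0.0987). Its partner Nfkb2 was at 7.51, 7.34 and 7.21 against 7.78, 8.67 and 8.93 (1.11 ± 0.28, adjusted p = 0.0883). In both genes replicates 2 and 3 were far above Fancc-/- and replicate 1 only just above it. Tnfrsf1b, a TNF receptor, was at 7.59, 8.37 and 8.33 against 8.39, 9.61 and 9.71 (1.14 ± 0.30, adjusted p = 0.1). The counts were 9 and 7 (median 0.11) without double knockout replicate 1, and 8 and 4 (median 0.17) without Fancc-/- replicate 3. Toll-like receptors and adaptors had 2 of 16 higher and 1 lower (median 0.11), with the adaptor Traf6 at 1.08 ± 0.31 (adjusted p = 0.117), Irak2 at 1.06 ± 0.31 (adjusted p = 0.121) and the receptor Tlr1 at -0.94 ± 0.26 (adjusted p = 0.104). Leaving out double knockout replicate 1 gave counts of 3 and 1, and leaving out Fancc-/- replicate 3, 6 and 3.

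Immediate early genes, which are transcribed within minutes of a stimulus, split the double-knockout mice. The list had 2 of 27 members higher and 9 lower with a median of -0.28, but its median was 0.32 in replicate 1 and -0.67 and -0.68 in replicates 2 and 3. The 2 higher members were Gadd45b, described above (0.96, the smallest p of the list), and Nr4a3 (1.48, limma adjusted p = 0.202). Jun, a subunit of AP-1, was at 12.13, 11.86 and 12.06 in Fancc-/- against 11.47, 9.80 and 9.59 in the double knockout (-1.73 ± 0.40, adjusted p = 0.084). Zfp36, which destabilizes cytokine mRNAs, was at 12.48, 12.13 and 11.71 against 11.63, 10.22 and 10.38 (-1.36 ± 0.32, adjusted p = 0.0852). Both genes were separated between groups, with replicate 1 closest to Fancc-/-. The counts were 1 and 13 (median -0.67) without that mouse, and 2 and 7 (median -0.20) without Fancc-/- replicate 3.

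Among the dual specificity phosphatases, which dephosphorylate MAP kinases, members lay on both sides: 4 of 11 were higher and 2 lower (median 0.16). Dusp16, which acts on JNK and p38, was at 5.48, 5.66 and 7.12 in Fancc-/- against 7.90, 8.64 and 8.88 in the double knockout (2.39 ± 0.51, adjusted p = 0.0728), with Fancc-/- replicate 3 nearest to the double knockout. Dusp1, itself an immediate early gene, was at 12.48, 12.48 and 12.47 against 12.35, 10.44 and 10.67 (-1.32 ± 0.37, adjusted p = 0.107), so replicate 1 lay just below Fancc-/- while the others were far below. The list's counts were 5 and 2 (median 0.08) without double knockout replicate 1 and 4 and 2 (median 0.03) without Fancc-/- replicate 3.

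**Figure D4:**
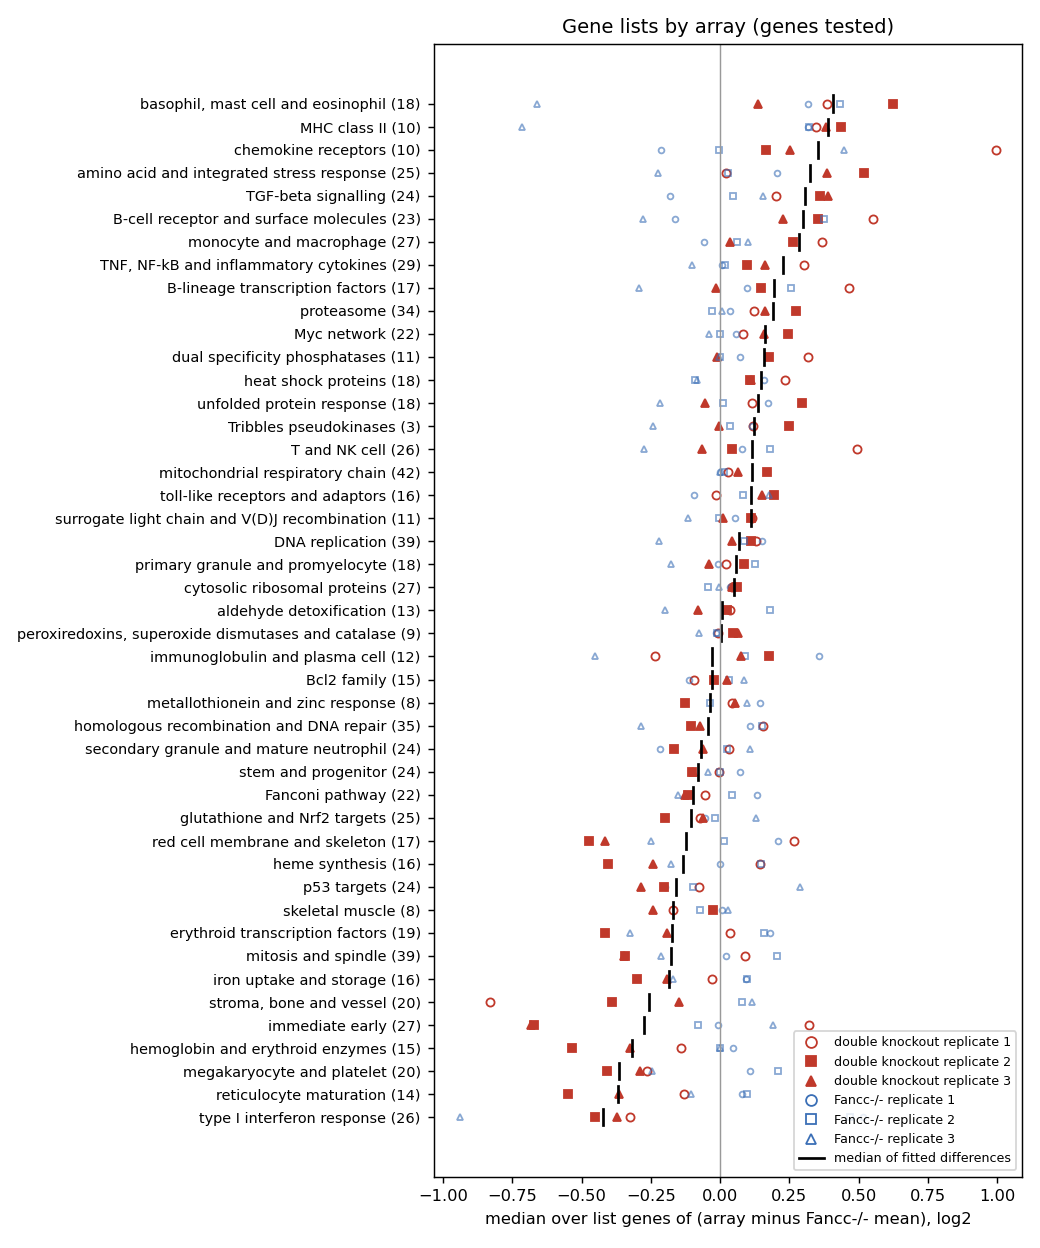
Each row is a gene list with the number of genes tested in parentheses, and each point is the median over its genes of an array's distance from the Fancc-/- mean (x axis, log2), in red for the double-knockout and blue for the Fancc-/- mice, with the median of the fitted differences as a black bar. The medians run from 0.41 for basophil, mast cell and eosinophil genes to -0.42 for type I interferon genes, and for both of these Fancc-/- replicate 3 lies far from its group (-0.66 and -0.94).

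Red cell genes had mostly lower values. Hemoglobin and erythroid enzymes had 1 of 15 members higher and 7 lower (median -0.32, with 14 of 15 differences negative), and reticulocyte maturation genes, the ubiquitin and autophagy factors that clear organelles, had none of 14 higher and 6 lower (median -0.37). Bpgm, which makes the regulator of oxygen release, was at 11.56, 11.84 and 11.75 in Fancc-/- against 11.11, 10.86 and 11.47 in the double knockout (-0.57 ± 0.15, adjusted p = 0.098). Hbb-bh1, an embryonic beta-like globin, was at 5.81, 5.61 and 6.00 against 5.19, 5.29 and 5.21 (-0.58 ± 0.14, adjusted p = 0.0852), and shares sequence with the other beta globins. Both were separated between groups. The 1 higher erythroid member was the alpha globin Hba-a2 (0.37, limma adjusted p = 0.13), while the beta globin Hbb-b2 was lower (-0.43, limma adjusted p = 0.142). Ube2o, a ubiquitin enzyme that remodels the reticulocyte proteome, was at 10.14, 10.35 and 9.72 against 9.52, 9.02 and 9.33 (-0.78 ± 0.19, adjusted p = 0.0852). Gabarapl2, of the autophagosome, differed by -0.37 ± 0.08 (adjusted p = 0.0772). Leaving out double knockout replicate 1 gave 1 and 10 for the erythroid enzymes and 0 and 9 for the reticulocyte genes, and leaving out Fancc-/- replicate 3 gave 1 and 9, and 1 and 8.

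In the other red cell lists, double knockout replicate 1 lay apart from the other mice of its group. Red cell membrane and skeleton genes had none of 17 higher and 2 lower, with medians by mouse of 0.27, -0.48 and -0.42, and Ermap, a blood group protein, at -0.81 ± 0.25 (adjusted p = 0.129). Heme synthesis had none of 16 higher and 4 lower, with medians of 0.14, -0.40 and -0.24. The lower members included Alas1, the general form of the first enzyme (-0.59 ± 0.11, adjusted p = 0.0644), and the last enzyme, Fech (-0.56 ± 0.17, adjusted p = 0.125). Alas2, the red cell form of the first enzyme, is X-linked and was not tested. For these lists the counts were 0 and 7, and 0 and 6, without double knockout replicate 1, and 1 and 4, and 1 and 8, without Fancc-/- replicate 3. Iron genes had none of 16 higher and 2 lower (median -0.18), with the iron exporter Slc40a1 at 9.80, 9.83 and 9.79 in Fancc-/- against 9.05, 8.60 and 9.12 in the double knockout (-0.88 ± 0.21, adjusted p = 0.0852). Erythroid transcription factors had 2 of 19 higher and 7 lower (median -0.17). Mllt3, a regulator of early blood cells, was at 7.50, 7.27 and 7.75 against 6.83, 6.13 and 6.61 (-0.98 ± 0.20, adjusted p = 0.0693), Gfi1b at -0.76 ± 0.20 (adjusted p = 0.103) and Gata2, a factor of progenitors and mast cells, at 0.77 ± 0.21 (adjusted p = 0.104). Iron genes and erythroid factors gave 1 and 5, and 2 and 9, without double knockout replicate 1, and 2 and 6, and 3 and 10, without Fancc-/- replicate 3.

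Type I interferon response genes had the lowest median of the lists, -0.42, with 1 of 26 members higher and 6 lower and 23 of 26 differences negative. Ifit1, an antiviral RNA-binding protein, was at 6.59, 6.99 and 4.74 in Fancc-/- against 4.70, 4.56 and 4.79 in the double knockout (-1.42 ± 0.43, adjusted p = 0.127). Fancc-/- replicates 1 and 2 were high, replicate 3 was within the double-knockout range, and wild type was at 5.18, 4.56 and 5.02. The double-knockout values of Ifit1 lay near or below the array medians of 4.79 to 4.87. The list's medians were 0.52, 0.47 and -0.94 for the Fancc-/- mice and -0.33, -0.45 and -0.37 for the double-knockout mice. Igtp, an interferon-inducible GTPase, was at 9.85, 9.49 and 8.12 against 8.15, 8.03 and 8.25 (-1.01 ± 0.35, adjusted p = 0.159). The counts were 0 and 22 (median -0.83) without Fancc-/- replicate 3, and 1 and 5 (median -0.46) without double knockout replicate 1.

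MHC class II genes, which present antigen to helper T cells, had Fancc-/- replicate 3 apart from its group as well. There were 2 of 10 members higher and none lower, with a median of 0.39, and medians of 0.32, 0.32 and -0.71 for the Fancc-/- mice against 0.35, 0.44 and 0.38 for the double knockout. H2-Oa was at 6.98, 7.80 and 5.82 in Fancc-/- against 7.83, 7.74 and 7.55 in the double knockout (0.84 ± 0.36, adjusted p = 0.234), so the groups overlapped. The counts were 0 and 1 (median 0.04) without Fancc-/- replicate 3, and 1 and 1 (median 0.41) without double knockout replicate 1.

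The B-cell lists had medians between -0.03 and 0.30 that depended on Fancc-/- replicate 3. Receptor and surface molecules had 5 of 23 higher and none lower (median 0.30). Tnfrsf13c, the receptor for the survival factor BAFF, was at 6.45, 6.61 and 7.23 in Fancc-/- against 8.09, 7.60 and 7.74 in the double knockout (1.04 ± 0.24, adjusted p = 0.0844), without overlap. B-lineage transcription factors had 3 of 17 higher and 2 lower (median 0.20), including Foxo1 at 6.74, 7.20 and 6.89 against 7.59, 8.65 and 8.27 (1.23 ± 0.23, adjusted p = 0.0627). The surrogate light chain and V(D)J recombination list holds genes of B-cell precursors and general end-joining repair genes such as Xrcc5 and Prkdc. It had none of 11 higher and 1 lower (median 0.11). The lower member was the repair gene Xrcc4 (-0.39, limma adjusted p = 0.252). Vpreb3, of the precursor receptor, was at 5.52, 5.23 and 5.36 in Fancc-/-, 5.89, 6.22 and 6.16 in the double knockout and 9.98, 9.11 and 9.00 in wild type (0.72 ± 0.54, adjusted p = 0.477 between the knockouts). Immunoglobulin and plasma cell genes had none of 12 higher and 1 lower, Ighm (-0.39 ± 0.10, adjusted p = 0.0913, median -0.03). Without Fancc-/- replicate 3 the medians were 0.06 for receptor and surface molecules (5 and 0), -0.05 for transcription factors (3 and 3), -0.04 for surrogate light chain genes (0 and 0) and -0.32 for immunoglobulin genes (0 and 4). Leaving out double knockout replicate 1 gave 4 and 3, 2 and 3, 0 and 1, and 1 and 1.

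Monocyte and macrophage genes lay on both sides, with 7 of 27 higher and 7 lower and a median of 0.28. Mrc1 was at 7.21, 7.16 and 7.81 in Fancc-/- against 5.93, 5.73 and 6.17 in the double knockout (-1.45 ± 0.27, adjusted p = 0.0627). Cd68, a lysosomal glycoprotein of phagocytes, was at 9.34, 9.23 and 8.89 against 9.62, 10.07 and 9.87 (0.70 ± 0.15, adjusted p = 0.0728), and Ctss, a cathepsin of antigen processing, at 12.39, 12.45 and 12.11 against 12.68, 12.64 and 12.68 (0.35 ± 0.08, adjusted p = 0.0852). All 3 were separated between groups, Mrc1 below and the others above. Other members, chosen after their values were seen, lay on either side. Those below were the complement genes C1qa (-1.15 ± 0.52, adjusted p = 0.252) and C1qc (-1.25 ± 0.57, adjusted p = 0.253), the hemoglobin scavenger receptor Cd163 (-1.24 ± 0.55, adjusted p = 0.244) and Cd5l (-1.05 ± 0.38, adjusted p = 0.175). Adgre1, a macrophage surface receptor, was at 0.53 ± 0.29 (adjusted p = 0.326), Apoe, a lipid carrier, at 0.70 ± 0.49 (adjusted p = 0.447) and Siglec1, a sialic acid receptor, at 0.02 ± 0.16 (adjusted p = 0.951). C1qa, C1qc, Cd163 and Cd5l were all highest in Fancc-/- replicate 3 among the 6 mice, C1qa at 8.05 there and 5.63 to 6.66 in the others. The list's counts were 7 and 4 (median 0.12) without that mouse and 6 and 3 (median 0.19) without double knockout replicate 1.

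Neutrophil-lineage lists had medians near 0. Primary granule and promyelocyte genes had none of 18 higher and 4 lower (median 0.06), including Gfi1, a repressor needed for neutrophil development, at 7.63, 7.91 and 7.41 in Fancc-/- against 6.61, 5.86 and 6.85 in the double knockout (-1.22 ± 0.30, adjusted p = 0.0852). Secondary granule and mature neutrophil genes had none of 24 higher and 2 lower (median -0.07). Cxcr2, the chemokine receptor that releases neutrophils from marrow, was at 8.78, 9.11 and 9.55 against 8.73, 6.65 and 6.71 (-1.78 ± 0.45, adjusted p = 0.09), with double knockout replicate 1 just below Fancc-/-. Basophil, mast cell and eosinophil genes had 3 of 18 higher and 1 lower (median 0.41). Mcpt8, a basophil protease, was at 9.35, 10.20 and 6.94 against 10.22, 11.63 and 10.50 (1.95 ± 0.65, adjusted p = 0.149), a narrow separation with Fancc-/- replicate 3 far below. The list's median was -0.23 without that mouse (3 and 3) and 0.31 without double knockout replicate 1 (3 and 2). Primary and secondary granule genes gave 1 and 5, and 1 and 3, without Fancc-/- replicate 3, and 1 and 3, and 0 and 3, without double knockout replicate 1.

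The remaining lists cover lymphoid, megakaryocyte, progenitor and non-blood cells. T and NK cell genes had 4 of 26 higher and 2 lower (median 0.11). The granule protease Gzma was at 4.91, 5.24 and 4.94 in Fancc-/-, close to the array medians of 4.79 to 4.87. In the double knockout it was at 8.25, 6.22 and 5.95 (1.78 ± 0.44, adjusted p = 0.0877), where replicate 1 was the high mouse. The T and NK median was -0.06 without that mouse (3 and 1) and -0.15 without Fancc-/- replicate 3 (3 and 4), so leaving out either mouse turned its sign. Megakaryocyte and platelet genes had none of 20 higher and 2 lower (median -0.37), including Rgs18 (-0.90 ± 0.32, adjusted p = 0.169). Stem and progenitor genes had 1 of 24 higher and 4 lower (median -0.08), with Erg, a factor of stem cell maintenance, at 6.91, 6.94 and 6.68 against 6.49, 5.45 and 5.22 (-1.12 ± 0.29, adjusted p = 0.0959). Stroma, bone and vessel genes had 1 of 20 higher and 2 lower, with medians by double-knockout mouse of -0.83, -0.39 and -0.15. Vcam1 of stroma and macrophages was at -0.68 ± 0.23 (adjusted p = 0.149), and Ctsk of osteoclasts at -1.22 ± 0.53 (adjusted p = 0.237). Skeletal muscle genes had none of 8 higher and 3 lower (median -0.17). Megakaryocyte, stem, stroma and muscle genes gave 0 and 3, 1 and 5, 1 and 2, and 0 and 2 without double knockout replicate 1, and 1 and 5, 2 and 5, 0 and 1, and 0 and 2 without Fancc-/- replicate 3. The part that differences in cell makeup had in the gene values above was not tested.

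Genes of the Fanconi pathway itself had none of 22 higher and 5 lower, with a median of -0.10. Apart from Fancg, Slx4, a scaffold for crosslink-cutting nucleases, was at 6.63, 6.63 and 6.93 in Fancc-/- against 6.33, 6.08 and 6.15 in the double knockout (-0.55 ± 0.12, adjusted p = 0.0772), without overlap. Palb2, which brings BRCA2 to breaks, was at 5.97, 6.04 and 5.15 against 5.43, 5.26 and 4.89 (-0.53 ± 0.22, adjusted p = 0.216), with overlap through Fancc-/- replicate 3. Homologous recombination and other repair genes had 1 of 35 higher and 4 lower (median -0.05). The Fanconi and repair lists gave 1 and 7, and 3 and 8, without double knockout replicate 1, and 0 and 6, and 3 and 7, without Fancc-/- replicate 3.

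The p53 target list had 5 of 24 members higher and 6 lower, with a median of -0.16. Mdm2, the ligase that limits p53, was at 9.07, 9.25 and 9.71 in Fancc-/- against 9.78, 10.31 and 10.40 in the double knockout (0.82 ± 0.20, adjusted p = 0.0852). Polk, a translesion polymerase, was at 5.92, 5.91 and 6.29 against 5.68, 5.26 and 4.99 (-0.73 ± 0.17, adjusted p = 0.0852), and Xpc, of nucleotide excision repair, at 8.52, 8.74 and 8.34 against 7.91, 7.82 and 7.94 (-0.65 ± 0.18, adjusted p = 0.104). The list's members therefore lay on both sides, with these 3 separated. Bcl2 family genes had 2 of 15 higher and 2 lower (median -0.03), including the death activators Bcl2l11 (0.78 ± 0.27, adjusted p = 0.155) and Bbc3 (0.67 ± 0.27, adjusted p = 0.211). Leaving out double knockout replicate 1 gave 5 and 5 for p53 targets and 3 and 2 for the Bcl2 family, and leaving out Fancc-/- replicate 3 gave 5 and 4, and 3 and 2.

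Replication and mitosis genes had medians of opposite sign. DNA replication genes had 3 of 39 higher and none lower (median 0.07, or -0.03 without Fancc-/- replicate 3), with the origin subunit Orc6 at 0.33 ± 0.11 (adjusted p = 0.154). Mitosis and spindle genes had none of 39 higher and 6 lower (median -0.18), with medians by double-knockout mouse of 0.09, -0.34 and -0.35. Cdc20, which activates the anaphase ligase, was at 11.06, 11.36 and 11.04 in Fancc-/- against 10.89, 10.47 and 10.59 in the double knockout (-0.50 ± 0.15, adjusted p = 0.124), and Nuf2, of the kinetochore, differed by -0.71 ± 0.22 (adjusted p = 0.136). The mitosis counts were 0 and 14 without double knockout replicate 1, against 13.0% lower over all genes there, and 0 and 13 without Fancc-/- replicate 3, against 11.8%. Replication genes gave 2 and 0, and 2 and 2.

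The last lists cover redox chemistry, aldehydes, metals and small families. Glutathione and Nrf2 target genes, which include Slc7a11, had 3 of 25 higher and 3 lower (median -0.10), with Gsr, which regenerates glutathione, at 10.99, 10.99 and 11.77 in Fancc-/- against 10.76, 10.69 and 10.68 in the double knockout (-0.54 ± 0.20, adjusted p = 0.186). Peroxiredoxins, superoxide dismutases and catalase had 2 of 9 higher and 1 lower, with the mitochondrial dismutase Sod2 at 0.54 ± 0.14 (adjusted p = 0.0998), the cytosolic Sod1 at 0.32 ± 0.11 (adjusted p = 0.163) and Cat at -0.60 ± 0.20 (adjusted p = 0.149). Aldehyde detoxification genes, whose substrates are a source of crosslinks, had none of 13 higher and 1 lower, Aldh1a1 (-0.66 ± 0.19, adjusted p = 0.121). Metallothionein and zinc genes had 2 of 8 higher and 1 lower (median -0.04), with the zinc exporter Slc30a1 at 7.28, 7.07 and 6.87 against 7.28, 8.02 and 8.47 (0.85 ± 0.24, adjusted p = 0.107). Chemokine receptors had 3 of 10 higher and 1 lower (median 0.35), including Ccr9 (1.82 ± 0.63, adjusted p = 0.159). Their median was 0.99, 0.17 and 0.25 by double-knockout mouse, and 0.02 without replicate 1 (2 and 1) against 0.51 without Fancc-/- replicate 3 (4 and 2). Of the 3 Tribbles pseudokinases Trib3, an ATF4 target, was at 6.02, 7.14 and 6.08 against 6.17, 8.27 and 7.77 (0.99 ± 0.44, adjusted p = 0.243), and the Tribbles list gave 1 and 1 without double knockout replicate 1 and 0 and 0 without Fancc-/- replicate 3. In the order given, the 4 lists of redox, aldehyde and metal genes gave 2 and 6, 2 and 2, 0 and 1, and 3 and 0 without double knockout replicate 1, and 4 and 4, 2 and 1, 0 and 3, and 2 and 0 without Fancc-/- replicate 3.

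Whether the loss of Fancg differed with and without Fancc was tested as an interaction, the double knockout minus Fancc-/- difference less the Fancg-/- minus wild type difference, which share no arrays. Of 11525 genes 1 passed (0.00868%), and 1720 had an unadjusted p below 0.05. Cd209d, a C-type lectin of the DC-SIGN family, was at 5.51, 5.46 and 5.38 in wild type, 4.73, 4.61 and 4.62 in Fancg-/-, 4.57, 4.42 and 4.34 in Fancc-/- against 4.75, 4.83 and 4.75 in the double knockout. Its 3 knockout groups all lay below wild type, and the double knockout was the least far below. Only the wild-type values of Cd209d lay above all array medians (4.79 to 4.87), and they alone made it bright enough to test. The order of the knockout groups is therefore read near or below those medians. The difference was -0.80 between Fancg-/- and wild type and 0.33 between the double knockout and Fancc-/-, an interaction of 1.13 ± 0.12 (SE, adjusted p = 0.0111). Cd209d no longer passed without wild type replicate 2 (adjusted p = 0.0584), double knockout replicate 2 (adjusted p = 0.0609) or double knockout replicate 3 (adjusted p = 0.0503). The interaction test called 581 genes without double knockout replicate 1, 102 without Fancc-/- replicate 3 and 21 without Fancg-/- replicate 3.

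Other genes of small p in the interaction did not pass. Sdc4, a heparan sulfate proteoglycan, had an interaction of 3.28 ± 0.50 (adjusted p = 0.0709) and was at 7.82, 8.11 and 7.64 in wild type, 6.44, 7.18 and 6.09 in Fancg-/-, 4.92, 4.78 and 5.91 in Fancc-/- against 6.57, 7.41 and 7.61 in the double knockout. Cpm, a membrane carboxypeptidase, was at 2.31 ± 0.35, Tnfrsf13c at 2.29 ± 0.34 and Trib2 at 2.25 ± 0.35, each with an adjusted p of 0.0709. For all 5 genes the Fancg-/- minus wild type difference was negative and the double knockout minus Fancc-/- difference positive. Over the 11525 genes the differences correlated weakly (Pearson r = -0.0862, Spearman rho = -0.0680, genes not being independent), with SDs of 0.35 in the Fancc-/- background and 0.25 in the wild-type background. Replicates 1 and 3 labelled Fancg-/- did not read like the double knockout for Fancg or for the sex marks. In Fancg-/- replicates 1 to 3, Fancg was at 6.55, 6.00 and 6.64, against 6.80 to 6.86 in wild type. Eif2s3y was at 7.64, 9.09 and 5.78 there beside Xist at 11.31, 7.34 and 10.75, so replicates 1 and 3 carried both sex marks. Genotype, sex marks and these mixed signals cannot be told apart in the interaction, and replicate 3 of Fancg-/- was also made from 0.91 µg of RNA, against 2 µg for the others.

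**Figure D5:**
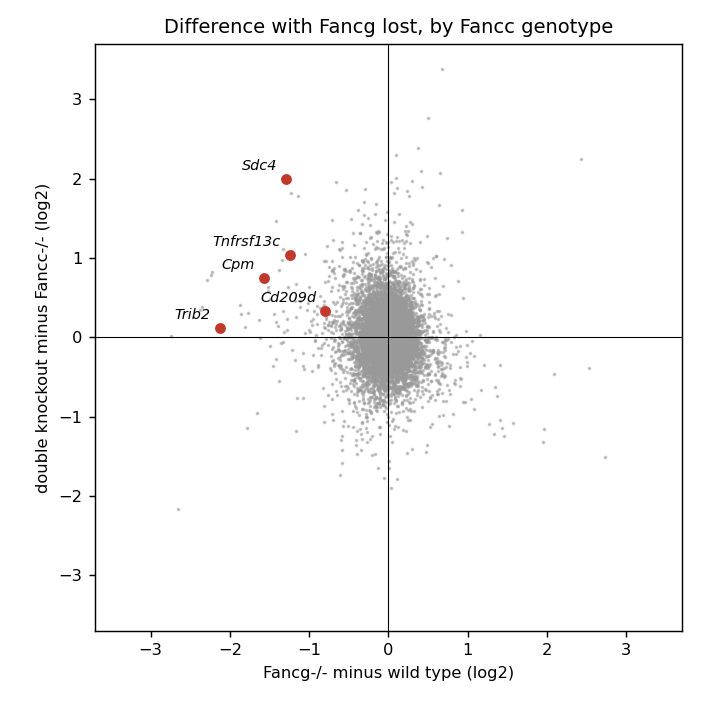
Each grey point is a gene, placed by its difference between Fancg-/- and wild type (x axis, log2) and between the double knockout and Fancc-/- (y axis, log2), and the 5 genes of smallest interaction p are in red. The red points lie at the upper left, from Cd209d (-0.80 and 0.33) to Sdc4 (-1.29 and 1.99).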

How the data were processed

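RNA of whole marrow, described as from 12 mice, was hybridized to Affymetrix arrays, 1 mouse per array and 3 per genotype. The authors deposited a log2 signal for each probe set. RMA and Partek are named in the submitters' processing notes. Versions are not given in the sources used here. RMA adjusts background and equalizes the distributions of the arrays, so a change shared by most genes would be removed. The array medians ran from 4.79 to 4.87 and values from 2.43 to 14.6. Arrays give no counts, and their number limits the precision. None of the sample columns was left unmapped.

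Of 45101 probe sets, 64 were controls, 34945 had 1 gene symbol, 932 several and 9160 none. Only those with 1 symbol were used, of which 34741 matched the RefSeq gene table (GRCm38.p6), 33588 of them autosomal. Each gene was read on its probe set of highest mean over the 12 arrays, and tested if that was above the percentile 50 of the array on at least 3 arrays. Limma 3.58.1 in R 4.3.3 fitted 4 group means to the 12 arrays, with moderated variances, a variance trend and 8 residual degrees of freedom. Tests were 2-sided, adjusted by Benjamini-Hochberg over all genes tested and called below 0.05. The script was tested on simulated data.

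Named genes are Fancc and Fancg, the 12 higher and 12 lower genes of largest difference past the threshold, filled by smallest p where fewer passed (here all), the 3 members of smallest p in each of 45 lists (1049 symbols), the 5 of smallest interaction p and sex-linked genes. Predicted genes were passed over. The genes, lists, rules and comparison were chosen with earlier results of these data known. Alternatives covered the filter, the probe set, the chromosomes, the scaling, the variance model, array weights, the samples fitted, the replicate number as a block and leaving out each array.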

Additional observations from a re-analysis of the deposited data

Results flagged for a closer look

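Cd209d was the gene that passed the test of whether the difference between the double knockout and Fancc-/- differed from that between Fancg-/- and wild type. Its interaction was 1.13 ± 0.12 on the log2 scale (limma adjusted p = 0.0111), from a difference of 0.33 ± 0.09 between the double knockout and Fancc-/- and of -0.80 ± 0.09 between Fancg-/- and wild type. All 3 double-knockout mice lay above all 3 Fancc-/- mice, and all 3 Fancg-/- mice below all 3 wild-type mice. It was dim in all groups, between 4.34 and 5.51. Only its wild-type values lay above all array medians (4.79 to 4.87), and it met the filter only through them. No group was large enough to test for outlying mice. It did not pass without wild type replicate 2 or double knockout replicate 2 or 3, with adjusted p values of 0.0503 to 0.0609. Genotype, sex marks and the mixed signals of the Fancg-/- mice cannot be told apart in it.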

How the results depend on the processing

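The count of genes passing between the double knockout and Fancc-/- (0 as reported) was 35 with the filter at the percentile 75, 19 with the mean of a gene's probe sets, 12 with median centring, 1 with all chromosomes and 1673 with array weights. It was 0 without a filter, with unique probe sets, quantile normalization, no trend, a robust fit, no moderation, only the 6 arrays compared, without the Fancg-/- group, and with the replicate number as a block. Leaving out an array gave 0 to 1238. The interaction count (1 as reported) was 2 without a filter, 0 at the percentile 75, 3 with the mean of probe sets, 0 with unique probe sets, 2 without moderation and 1012 with array weights, and 0 to 581 leaving out an array. The count of listed genes passing (0) was 5 at the percentile 75, 2 with the mean of probe sets, 3 with median centring and 173 with array weights, and 0 to 127 leaving out an array. The cause was not tested, and the settings with fewer genes also adjust over fewer tests. The deviations of same-numbered double-knockout and Fancc-/- mice from their group means correlated at 0.159, -0.108 and 0.195. With 3 mice per group these values cannot decide whether the numbers pair the mice, and the main fit did not pair them. In the fit with the replicate block 0 genes passed and 2171 had an unadjusted p below 0.05, and 1 passed the interaction. Member counts of the lists without double knockout replicate 1 or Fancc-/- replicate 3 were added after the data were seen. Over the alternatives, 0 of 665 values of named genes reversed and 119 came to pass the threshold. Leaving out an array could not reverse a gene whose groups did not overlap. Of 116 interaction values 0 reversed and 3 no longer passed. Of 899 list medians, 88 moved by more than the spread between mice.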

Other observations

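Some genes outside the naming rule, chosen after their values were seen, add to the account. Emp1, a membrane protein of the claudin superfamily, had a difference of 3.39 ± 0.63 (SE, limma adjusted p = 0.0625), with Fancc-/- at 5.61, 5.16 and 6.99 and the double knockout at 7.84, 9.93 and 10.15. Wild type lay at 5.52, 6.72 and 5.94, so the groups compared did not overlap and the double knockout was above wild type too. Cdkn1a, the cell cycle inhibitor p21 and a p53 target, was at 8.90, 8.50 and 9.90 in Fancc-/- against 10.00, 10.53 and 10.41 in the double knockout (1.21 ± 0.43, adjusted p = 0.168), with wild type at 8.39, 9.69 and 9.54. Fos, the partner of Jun in AP-1, was at 13.21, 13.18 and 12.93 against 12.80, 10.84 and 11.22 (-1.49 ± 0.36, adjusted p = 0.0852), with double knockout replicate 1 closest to Fancc-/-.

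For a pair of genes far from wild type in both knockouts, the difference between the knockouts did not pass. Vpreb1, of the precursor B-cell receptor, was at 8.99, 9.30 and 8.27 in wild type. It was at 4.16, 4.16 and 4.31 in Fancc-/-, below the array medians of 4.79 to 4.87. In the double knockout it was at 5.21 and 5.70 in replicates 2 and 3, and within the Fancc-/- range in replicate 1 (0.82 ± 0.75, adjusted p = 0.566). The metallothionein Mt2, a metal-binding stress protein, was at 7.92, 8.56 and 8.32 in wild type, 11.44, 10.24 and 11.57 in Fancc-/- against 10.83, 10.74 and 10.97 in the double knockout (-0.23 ± 0.28, adjusted p = 0.676). For Mt2 the knockout groups overlapped.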
